A study of Mus musculus with 15 samples.

Results

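The HOX cluster genes are the homeobox genes of the 4 vertebrate clusters Hoxa, Hoxb, Hoxc and Hoxd. They were taken as every gene whose symbol is Hoxa, Hoxb, Hoxc or Hoxd followed by a number, after the Entrez identifiers had been matched to mouse symbols in RefSeq's gene table of GRCm38.p6. This gave 39 genes of the 36528 listed, namely 11 of Hoxa, 10 of Hoxb, 9 of Hoxc and 9 of Hoxd. Of the 39, 26 passed the filter on low counts and were tested, and the other 13 are described by their counts. PolyA RNA had been sequenced from sorted cells of skin tumours in a mouse model of basal cell carcinoma, in 15 libraries. All mice, controls included, carried K14Cre-ER, Ptch1fl/fl, p53fl/fl and Lgr5GFP. K14Cre-ER places an inducible Cre under a promoter of basal keratinocytes, and the floxed genes are Ptch1, which encodes the Hedgehog receptor that holds SMO in check, and Trp53. Lgr5GFP marks cells that express the stem cell gene Lgr5. The groups were control (n = 4), 6 days of vismodegib (n = 8) and 14 days of vismodegib (n = 3). Vismodegib is a drug that blocks SMO and so Hedgehog signalling. The series' design text calls the control mice untreated, while the age of the mice and the gate of the sort are not given. Whether each library is a separate animal is not stated, and p-values therefore measure the spread between libraries, which may be technical.

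HOX proteins are transcription factors that bind DNA through a homeodomain, usually together with partners of the TALE class such as PBX and MEIS. The genes lie in each cluster in the order in which they are used along the body axis, and genes with the same number in different clusters are paralogues. In adult skin, HOX expression marks the position of the skin on the body, and Hoxc13 is needed for hair and nail, where it is known to control keratin genes of the hair shaft.

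Total counts ran from 27336935 to 256569828 per library. The identifiers that the submitters gave their samples form 3 blocks of numbers, here ranges A, B and C. The labels do not describe them as batches. Range A comprised 3 control and 5 6-day libraries with totals of 27336935 to 38657170, and range B held control replicate 4 and 6-day replicates 2, 5 and 7 with totals of 93183564 to 256569828. Range C comprised all 3 14-day libraries, and nothing else, with totals of 119045864 to 162951666, so that range C and 14 days of treatment cannot be told apart. Krt5, a keratin of basal keratinocytes, stood at 6721 ± 2095 CPM in control, 9643 ± 3543 CPM at 6 days and 8273 ± 2126 CPM at 14 days (SD). Summed levels of 7 dermal fibroblast markers stayed at or below 21.4 CPM in every library. Of the pathway that the drug blocks, Ptch1, a target gene as well as the receptor, fell 12.3-fold at 14 days against control (log2 fold change -3.62, edgeR adjusted p = 0.0454), and Gli1, a target gene that encodes a transcription factor of the pathway, had a log2 fold change of -2.78 (adjusted p = 0.0848). CPM here are counts scaled to the library total after TMM correction, a level that allows one gene to be compared between libraries. Between genes, levels are given as RPKM, which are also divided by gene length.

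Hoxc13 and Hoxc12 are neighbours at the end of the Hoxc cluster and were the HOX genes that edgeR, fitted to the treatment groups alone, called in the 3 treatment comparisons. DESeq2, and edgeR with an identifier range as a covariate, called more, as given with each comparison. The homeobox stretches of Hoxc13 and Hoxc12 are shown because they encode the DNA-binding homeodomains of these 2 genes. On GRCm38, Hoxc13 (Entrez Gene 15422) spans chr15:102921131-102928814 and Hoxc12 (Entrez Gene 15421) spans chr15:102936826-102938609, and no other annotated gene overlaps either. The stretches are coding sequence of exon 2, 180 bases or 60 codons each, on the plus strand at chr15:102927210-102927389 for Hoxc13 and at chr15:102938308-102938487 for Hoxc12. Capitals mark the bases at which the 2 genes differ, and 112 of 180 bases (62.2%) are identical.
Hoxc13: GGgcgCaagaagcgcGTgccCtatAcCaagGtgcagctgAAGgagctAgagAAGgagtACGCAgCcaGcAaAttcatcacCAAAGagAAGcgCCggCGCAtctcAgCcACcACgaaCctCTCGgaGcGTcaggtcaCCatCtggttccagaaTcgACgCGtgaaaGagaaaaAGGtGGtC
Hoxc12: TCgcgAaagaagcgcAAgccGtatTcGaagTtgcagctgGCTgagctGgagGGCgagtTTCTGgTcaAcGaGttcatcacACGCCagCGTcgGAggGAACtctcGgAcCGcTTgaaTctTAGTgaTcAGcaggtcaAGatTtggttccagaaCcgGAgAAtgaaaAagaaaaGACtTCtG

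Hoxb8 and Hoxc8 are paralogues of group 8, shown because Hoxb8 had the largest range B term of the 26 tested HOX genes while Hoxc8 was the HOX gene with the highest mean RPKM. Their homeobox stretches lie in exon 2 on the plus strand, at chr11:96284174-96284353 for Hoxb8 and chr15:102992571-102992750 for Hoxc8 on GRCm38. They share 144 of 180 bases (80.0%), so that 36 bases, in capitals, tell reads of one from reads of the other in this stretch.
Hoxb8: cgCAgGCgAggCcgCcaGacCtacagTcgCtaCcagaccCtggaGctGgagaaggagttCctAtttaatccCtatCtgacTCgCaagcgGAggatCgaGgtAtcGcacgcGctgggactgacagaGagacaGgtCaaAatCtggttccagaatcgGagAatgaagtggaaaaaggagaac
Hoxc8: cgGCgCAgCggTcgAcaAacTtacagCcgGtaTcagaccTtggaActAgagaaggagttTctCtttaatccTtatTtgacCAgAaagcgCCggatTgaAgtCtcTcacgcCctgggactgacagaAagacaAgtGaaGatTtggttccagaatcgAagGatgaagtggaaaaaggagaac

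Of the 4 clusters, Hoxa, Hoxb and Hoxc were expressed at like levels in control and at 6 days, and Hoxd was far lower in all groups. At 14 days the Hoxa sums, 42.9 to 49.1, lay above those of Hoxb, 28.3 to 40.1, and Hoxc, 23.6 to 38.4. In control libraries the deposited RPKM summed over a cluster were 52.7 ± 11.2 for Hoxa, 54.9 ± 30.1 for Hoxb, 69.4 ± 22.04 for Hoxc and 3.10 ± 1.74 for Hoxd (SD, n = 4). At 6 days the sums were 65.0 ± 20.7 for Hoxa, 63.0 ± 24.5 for Hoxb, 68.7 ± 29.5 for Hoxc and 1.10 ± 0.61 for Hoxd (SD, n = 8). At 14 days they were 46.1 ± 3.13 for Hoxa, 33.7 ± 5.96 for Hoxb, 31.2 ± 7.43 for Hoxc and 0.58 ± 0.51 for Hoxd (SD, n = 3). The Hoxc cluster thus made up 27.7 ± 2.8% of all HOX RPKM at 14 days (range 24.8 to 30.5%) and 38.8 ± 1.7% in control (36.9 to 40.9%), 2 ranges that do not overlap. At 6 days the Hoxc share was 34.3 ± 5.9% (27.8 to 43.8%), which overlaps both. Within the cluster, the mean share of Hoxc13 was 13.8% in control and 2.66% at 14 days. That of Hoxc8 was 20.4% and 19.7%, and that of Hoxc5 1.62% and 3.59%. For Hoxa the shares were 41.7 ± 4.4% at 14 days and 30.3 ± 4.9% in control. Their ranges were 36.7 to 45.2% and 24.5 to 35.7%, with 28.0 to 36.9% at 6 days. Shares depend on the total, and the mean Hoxa sum itself was lower at 14 days than in control. The share of Hoxb was 30.2 ± 1.6% at 14 days and 29.2 ± 5.3% in control.

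**Figure D1:**
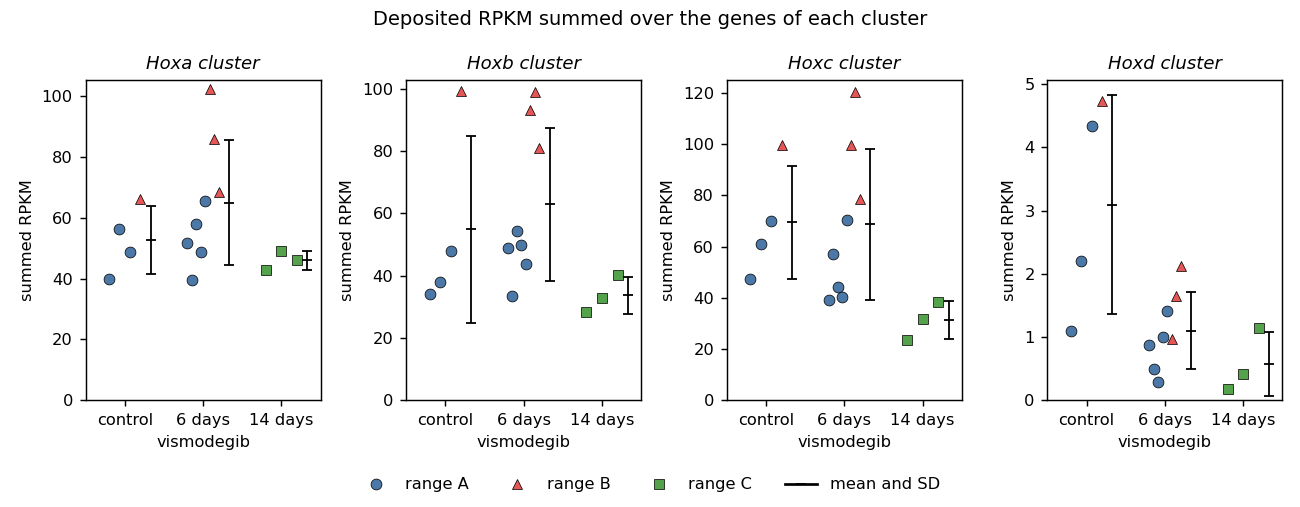
Deposited RPKM summed over the genes of each cluster, by treatment group, with 1 point per library, symbols for the identifier range, and the mean with its SD at the right of each group. In the Hoxb and Hoxc panels the range B libraries lie above the range A and range C libraries, and the 14-day sums of Hoxc do not exceed 38.4.

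Levels differed between paralogue groups. Paralogue groups 7 and 8 were highest, with summed control RPKM of 36.7 ± 5.44 and 43.7 ± 14.98, while groups 10 and 11 had sums of at most 0.15 in any library and no tested member. Groups 12 and 13 were again expressed, but through Hoxc12 and Hoxc13 alone. Hoxc13 averaged 26.5 ± 18.0 RPKM in control, whereas Hoxc11 had no read in any library and Hoxc10 had 34 reads over all 15. No read was counted in any library for 7 genes, Hoxa13, Hoxb13, Hoxc11, Hoxd10, Hoxd11, Hoxd12 and Hoxd13. A count of 0 allows up to 3 counts, which corresponds to 0.012 to 0.105 CPM depending on the library and covers counting error only. The other 6 untested genes, Hoxa10, Hoxa11, Hoxb1, Hoxc10, Hoxd1 and Hoxd9, had 4 to 118 reads over all libraries. A mean of at least 1 RPKM was reached by 21 HOX genes in control, 21 at 6 days and 15 at 14 days.

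**Figure D2:**
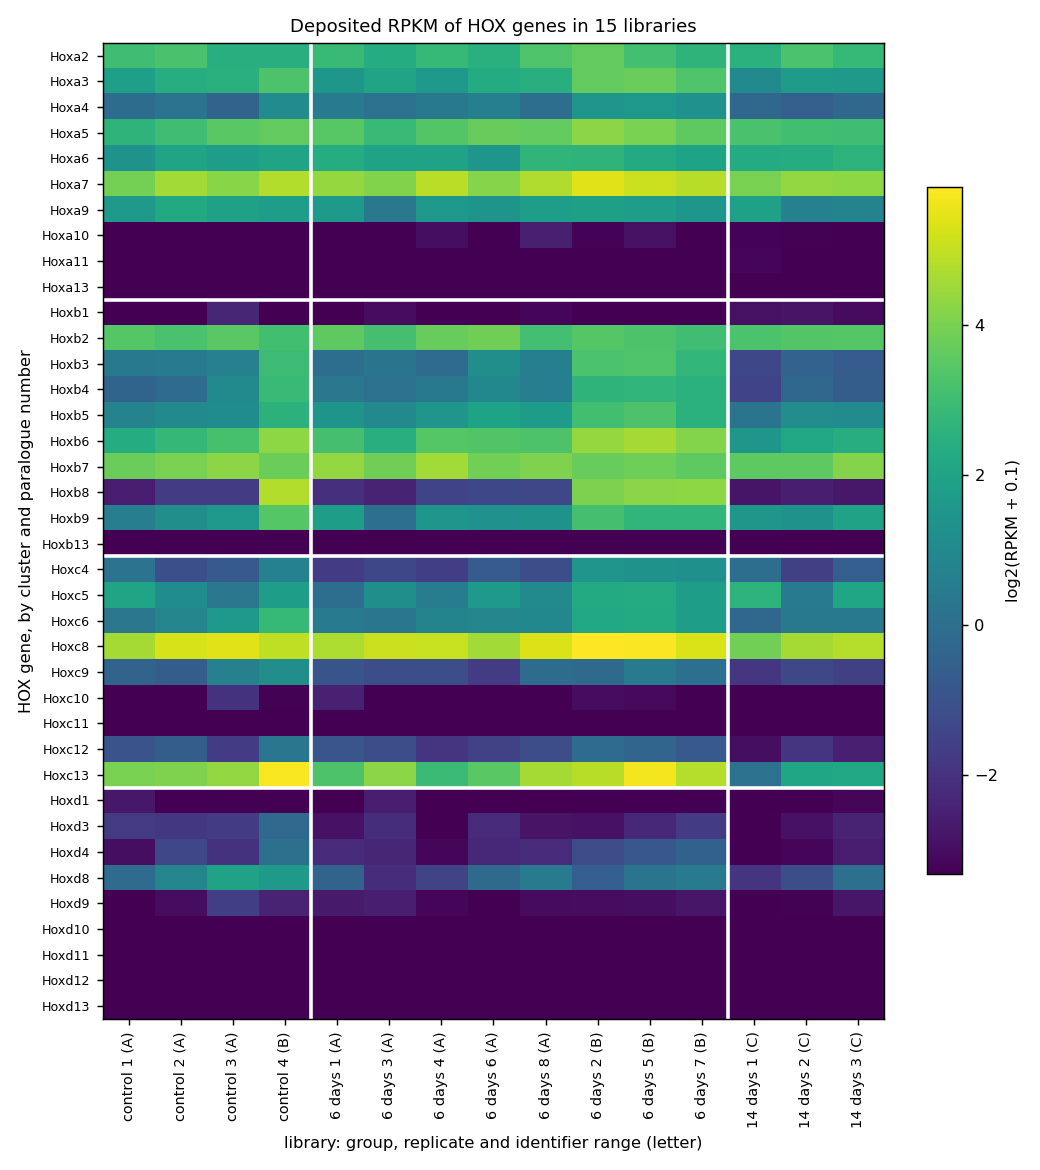
Deposited RPKM of HOX genes in the 15 libraries on a log2 scale with 0.1 added, with genes by cluster and number and libraries by group; the letter gives the identifier range. Hoxa7, Hoxc8 and Hoxb7 are bright in every library, Hoxc13 is darker in the 3 14-day libraries, and Hoxb8 is bright in range B alone.

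In control, Hoxc8 came first in the order of levels at 34.4 ± 8.47 RPKM, followed by Hoxc13, by Hoxa7 at 21.2 ± 5.44 RPKM and by Hoxb7 at 15.5 ± 2.60 RPKM. Ranges over libraries of each gene and the next in this order overlapped for the whole of the first 14 genes. At 14 days Hoxc8 (22.3 ± 6.79 RPKM), Hoxa7 (18.6 ± 2.31 RPKM), Hoxb7 (13.6 ± 3.20 RPKM) and Hoxb2 (10.2 ± 0.72 RPKM) led. Hoxc13 came 10th there, with 3.10 ± 1.85 RPKM.

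Hoxa7, Hoxc8 and Hoxb7 were among the highest HOX genes in all groups. Hoxa7, a repressor of differentiation genes in human keratinocytes, had 100.3, 124, 161 and 182 CPM in the control libraries. It had a lowest, median and highest value of 116, 190 and 289 CPM at 6 days, and 108, 133 and 140 CPM in the 14-day libraries. The 3 groups overlapped. Hoxc8, which patterns the thoracic skeleton, had 67.0, 85.9, 110.3 and 121 CPM in control, a lowest, median and highest value of 67.8, 106 and 162 CPM at 6 days, and 41.8, 69.8 and 79.3 CPM at 14 days. One 14-day library lay below every control. Hoxb7, which can induce the growth factor FGF2 in human melanoma cells, had 35.4, 35.7, 42.2 and 50.5 CPM in control, 32.2, 39.4 and 62.9 CPM as lowest, median and highest at 6 days, and 31.4, 32.3 and 46.7 CPM at 14 days, again with overlap.

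The leading genes at the anterior and middle positions of Hoxa and Hoxb overlapped between control and 6-day libraries. Hoxa5, which is needed for lung development, had 13.4, 18.2, 24.7 and 27.2 CPM in control, a lowest, median and highest value of 16.0, 27.7 and 42.6 CPM at 6 days, and 18.2, 18.7 and 20.4 CPM at 14 days. Hoxa2 and Hoxb2 pattern the hindbrain and the branchial arches. Hoxa2 had 11.1, 11.2, 16.5 and 19.2 CPM in control, a lowest, median and highest value of 10.5, 15.02 and 26.05 CPM at 6 days, and 11.9, 14.7 and 20.0 CPM at 14 days. Hoxb2 had 25.3, 28.9, 33.1 and 35.0 CPM in control, a lowest, median and highest value of 26.2, 32.4 and 46.4 CPM at 6 days, and 29.6, 33.5 and 34.1 CPM at 14 days. Both thus overlapped between all groups. Hoxb6 was less even, with 9.78, 13.7, 17.8 and 38.1 CPM in control, a lowest, median and highest value of 11.0, 21.1 and 49.6 CPM at 6 days, and 5.68, 8.95 and 10.4 CPM at 14 days.

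Hoxc5 had 3.62, 6.74, 10.6 and 12.8 CPM in control, a lowest, median and highest value of 2.97, 8.61 and 16.0 CPM at 6 days, and 4.36, 13.6 and 19.6 CPM at 14 days. Its groups overlapped, and 2 14-day libraries were above every control. Of Hoxd, only Hoxd3, Hoxd4 and Hoxd8 were tested. Hoxd8 had 2.55, 5.40, 9.06 and 11.7 CPM in control, a lowest, median and highest value of 0.415, 2.30 and 4.10 CPM at 6 days, and 0.533, 1.16 and 2.94 CPM at 14 days. The 14-day values overlapped the lowest control. Hoxd3 and Hoxd4, which pattern neck vertebrae, were lower still. Hoxd3 had 0.624, 0.650, 0.687 and 2.61 CPM in control, at most 0.712 CPM at 6 days and at most 0.311 CPM at 14 days. Hoxd4 had 0.081, 0.468, 0.861 and 2.84 CPM in control, at most 1.92 CPM at 6 days and at most 0.202 CPM at 14 days. At these levels Hoxd3 and Hoxd4, which also overlap each other on the genome, rest on few reads.

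The first comparison set 6 days of vismodegib against control. No HOX gene was called. By edgeR's quasi-likelihood test with Benjamini-Hochberg adjustment over 18751 genes, 0 of 26 HOX genes were called at an adjusted p under 0.05, beside 1.26% of all genes. At an unadjusted p under 0.05 there was 1, Hoxd8, and DESeq2 also called 0. No HOX gene separated the 2 groups without overlap, as 1.47% of all genes did on the lower and 1.22% on the higher side. Log2 fold changes were positive for 18 and negative for 8 (negative for 46.3% of all genes), with a median of 0.16 against 0.03 over all genes tested, with the lowest value, -1.95, for Hoxd3. All 8 tested Hoxb genes had positive values, between 0.02 and 0.76, and all 3 tested Hoxd genes had negative ones. The smallest adjusted p was that of Hoxd8 (log2 fold change -1.59, SE 0.57, adjusted p = 0.220), with 2.38 ± 1.37 CPM at 6 days and 7.17 ± 4.02 CPM in control. Within range A Hoxd8 averaged 1.96 CPM at 6 days (n = 5) and 6.54 CPM in control (n = 3), and within range B 3.08 CPM at 6 days (n = 3) and 9.06 CPM in the 1 control. The 6-day effect itself was compared between ranges B and A by an interaction term, chosen after the data had been seen. It called 0 of 26 HOX genes by edgeR, beside 0.056% of all genes, with 1 HOX gene, Hoxc4, at an unadjusted p under 0.05. DESeq2 was not run on this term.

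The second comparison asks what had changed by 14 days. By edgeR, Hoxc13 and Hoxc12 were called lower, and no HOX gene was called higher. Hoxc13 had 3.20, 13.6 and 14.2 CPM in the 14-day libraries, against 51.4, 55.1, 65.7 and 173 CPM in the control libraries. Every 14-day library was below every control library, and the 1 control of range B was far above the other 3. The difference was 8.34-fold (log2 fold change -3.06, SE 0.74, edgeR adjusted p = 0.0233). Hoxc12, which has been described in the hair follicle, had 0.103, 0.303 and 0.675 CPM in the 14-day libraries, against 0.843, 1.63, 2.23 and 4.44 CPM in the control libraries. These groups did not overlap either, and the difference was 6.35-fold (log2 fold change -2.67, SE 0.75, edgeR adjusted p = 0.0466). The 2 lower and 0 higher calls among 26 compare with 3.35% of all genes called lower, 3.25% called higher and 6.6% called in all. With range B as a covariate edgeR called 6 of 26, all lower, beside 17% of all genes, namely Hoxb3, Hoxb8, Hoxc6, Hoxc9, Hoxc12 and Hoxc13. DESeq2 called 8, all lower, beside 14.7% of all genes, namely Hoxb3, Hoxb4, Hoxb8, Hoxc9, Hoxc12, Hoxc13, Hoxd4 and Hoxd8. In bulk RNA, fewer cells of a type and less RNA per cell cannot be told apart.

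**Figure D3:**
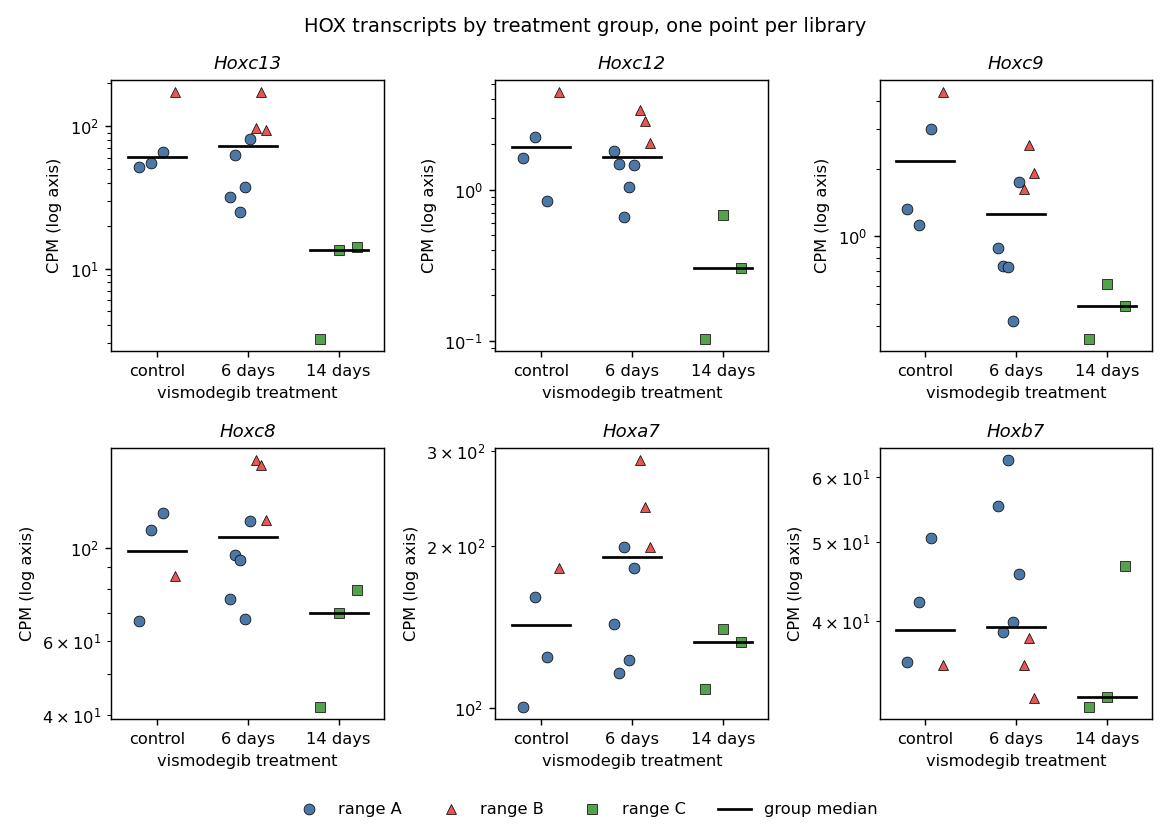
CPM of 6 HOX genes by treatment group on log axes, with 1 point per library, a bar at each group's median and symbols for the identifier range. For Hoxc13, Hoxc12 and Hoxc9 the 3 14-day libraries lie below all control libraries, while Hoxc8, Hoxa7 and Hoxb7 overlap.

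The Hoxc13 and Hoxc12 calls rest on 3 libraries that share one identifier range, and no range holds a 14-day library beside a control. Left without 14-day replicate 1, 2 or 3, the edgeR adjusted p of Hoxc13 became 0.103, 0.0630 or 0.0648, and in a fit of the 14-day and control libraries alone it was 0.0603. With range B as a covariate it was 0.00449 (log2 fold change -2.52), and without the range B libraries it was 0.0157 (-2.49). Hoxc12 lost its call without control replicate 2 (edgeR adjusted p = 0.0750) or 4 (0.0971), without 14-day replicate 1 (0.178) or 3 (0.157), and without 6-day replicates 1, 2, 3, 5, 7 or 8 (0.0501 to 0.0631). Its fold without 14-day replicate 2 was 11.2. Without the range B libraries the adjusted p of Hoxc12 was 0.0601, in the 2 groups alone 0.140, and with no filter on low counts 0.0689. It kept its call with range B as a covariate (edgeR adjusted p = 0.0210), with RLE factors (0.0452), with a filter of 1 CPM in 3 libraries (0.0424) and by DESeq2 (0.00162). Markers of other cells moved at the same time. Of 6 myeloid markers 2 were called higher at 14 days, beside 3.25% of all genes. The 6 summed to 21.6 to 32.2 CPM at 14 days and 3.86 to 13.0 CPM in control. The macrophage gene C1qb had 5.37 to 8.68 CPM at 14 days and at most 0.14 CPM in control. Summed dermal fibroblast markers spanned 5.31 to 8.82 CPM at 14 days and 9.38 to 21.4 CPM in control. Of the 6 tested 1, Twist2, was called lower, beside 3.35% of all genes, and 2 had positive values. Twist2 had at most 0.00841 CPM at 14 days and 0, 0.125, 0.772 and 5.02 CPM in control, so that its groups overlapped. Summed keratinocyte markers spanned 14239 to 31089 CPM at 14 days and 10445 to 18499 CPM in control. Of the 6, Itga6 and Cdh1 were called higher, beside 3.25% of all genes. The part of any of these in the HOX values was not tested.

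Beyond these 2 calls most HOX genes had negative values at 14 days that did not pass edgeR's test in the fit to the treatment groups alone. Of 26, 22 had a negative log2 fold change, beside 51% of all genes, and the median of the 26 was -0.70, against -0.02 for all genes tested. At an unadjusted p under 0.05 by edgeR there were 11 of the 26, with Hoxc12 and Hoxc13 among them. The 14-day and control libraries did not overlap for 7 of the 26. Of these, Hoxa3, Hoxb3, Hoxc9, Hoxc12, Hoxc13 and Hoxd3 were lower (11.7% of all genes were) and Hoxa6 was higher (11.7%). Hoxc9, which specifies thoracic motor neurons, did not pass in the fit to the treatment groups alone, with 0.349, 0.488 and 0.613 CPM at 14 days and 1.13, 1.33, 2.998 and 4.39 CPM in control (log2 fold change -2.35, edgeR adjusted p = 0.0531). It passed with range B as a covariate (log2 fold change -1.93, edgeR adjusted p = 0.0200), by DESeq2 (-2.39, adjusted p = 0.00264), with RLE factors and with the filter of 1 CPM. Median log2 fold changes were -0.19 for the 8 Hoxa genes, -0.97 for the 8 Hoxb genes, -1.56 for the 7 Hoxc genes and -2.98 for the 3 Hoxd genes. Hoxc5 and Hoxa6 had positive values of 0.57 and 0.64. Hoxa6 lies within the span of Hoxa3, and Hoxb4 within that of Hoxb3, and the sources used here do not give how reads of overlapping genes were counted, which makes values of such genes uncertain.

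**Figure D4:**
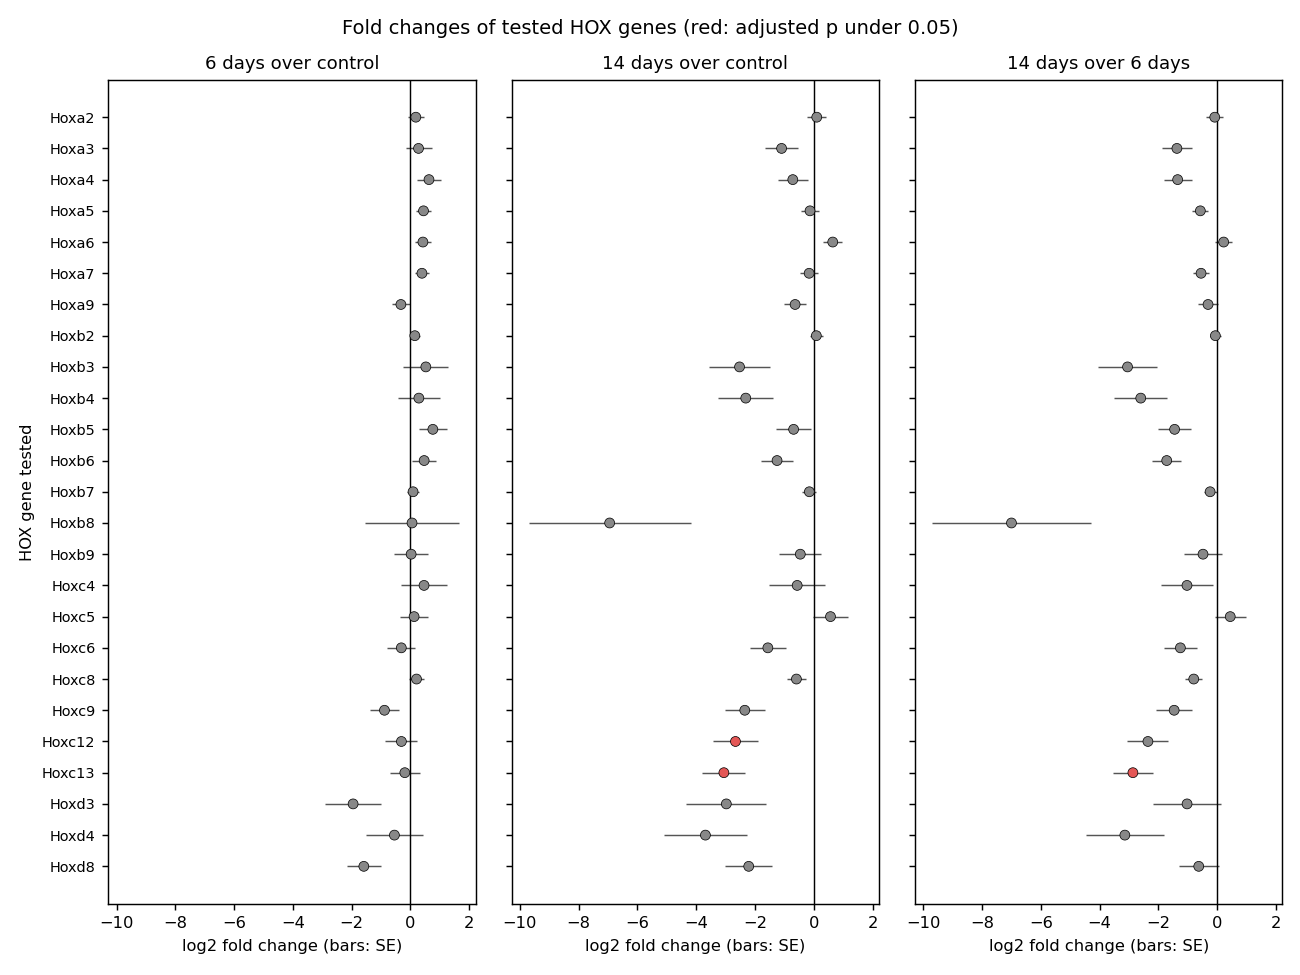
Log2 fold changes of tested HOX genes with their standard errors in the 3 comparisons, with genes down the page by cluster and number and genes past an adjusted p of 0.05 in red. Points lie close to 0 for most genes at 6 days, Hoxc12 and Hoxc13 are red at 14 days over control, and Hoxb8 has the widest bars.

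The third comparison set 14 days against 6 days of treatment. Hoxc13 fell 7.30-fold (log2 fold change -2.87, SE 0.69, edgeR adjusted p = 0.0373). It averaged 10.3 ± 6.19 CPM at 14 days (n = 3) and 75.4 ± 48.7 CPM at 6 days (n = 8), where its lowest value was 24.8 CPM, its median 72.2 CPM and its highest 174 CPM. The groups did not overlap. This was the only edgeR call among the 26 in the fit to the treatment groups alone, beside 3.89% of all genes called in either direction, 1.75% lower and 2.14% higher. With range B as a covariate edgeR called 5, all lower, beside 10.9% of all genes, which were Hoxb3 (log2 fold change -1.41, adjusted p = 0.0144), Hoxb4 (-1.32, 0.0436), Hoxb6 (-1.09, 0.0167), Hoxb8 (-1.83, 0.0154) and Hoxc13 (-2.18, 0.0114). DESeq2 called 10, all lower, beside 13.9% of all genes, namely Hoxa3, Hoxa4, Hoxb3, Hoxb4, Hoxb5, Hoxb6, Hoxb8, Hoxc12, Hoxc13 and Hoxd4. Of 26 HOX genes, 24 had a negative log2 fold change (53.5% of all genes), with a median of -1.08 against -0.06. At an unadjusted p under 0.05 by edgeR there were 13 of the 26. Groups did not overlap for 6, all lower, namely Hoxa4, Hoxb3, Hoxb4, Hoxb6, Hoxb8 and Hoxc13, beside 6.28% of all genes lower and 5.42% higher. The Hoxc13 call was lost without 14-day replicates 1, 2 or 3 (edgeR adjusted p = 0.266, 0.0635 and 0.110) and without 6-day replicates 2, 3, 5, 7 or 8 (0.0526 to 0.0580). Hoxc12 had 0.360 ± 0.290 CPM at 14 days and 1.84 ± 0.904 CPM at 6 days and did not pass by edgeR (log2 fold change -2.36, adjusted p = 0.0708), nor with range B as a covariate (0.0505), but passed by DESeq2 (-2.36, adjusted p = 0.00299). At 6 days against control neither gene differed beyond the spread, with log2 fold changes of -0.19 for Hoxc13 (adjusted p = 0.956) and -0.31 for Hoxc12 (0.928). Both comparisons with 14 days use the same 14-day libraries.

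More HOX genes were called between identifier ranges than in any treatment comparison. This comparison was added after the data had been seen, as was the choice to name Hoxb8. With range B as a covariate beside treatment, 17 of 26 HOX genes were higher in range B and 0 were lower, where edgeR called 43.1% of all genes, 21.7% higher and 21.3% lower. The 4 range B libraries exceeded all 11 others without overlap for 13 of 26, beside 12.9% of all genes, and they lay below all others for 0, beside 10.1%. Of the 26, 24 had a positive range B term, and their median was 1.23 on the log2 scale, against 0.01 over all genes. By cluster 5 of 8 Hoxa, 6 of 8 Hoxb, 5 of 7 Hoxc and 1 of 3 Hoxd genes were higher.

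Hoxb8, known in mice for its part in grooming behaviour, had the largest difference. It had 54.5, 65.0, 66.1 and 89.7 CPM in the range B libraries, against 0.217 to 1.02 CPM in the range A libraries and 0.144 to 0.233 CPM in the range C libraries. The lowest range B library was 53.7 times the highest of the others, and the fitted difference was 106-fold (log2 6.73, SE 0.34). The same split was seen among controls, where control replicate 4 had 89.7 CPM and the other controls 0.217, 0.656 and 0.713 CPM. Hoxb8 (Entrez Gene 15416, chr11:96279401-96285325 on GRCm38) overlaps no other annotated gene. Its log2 fold change at 6 days against control was 0.05, and 5.49 without control replicate 4, and neither passed. At 14 days it was -6.95 against control and -7.00 against 6 days, neither of which passed (edgeR adjusted p = 0.144 and 0.145), and -1.51 against control without control replicate 4. With range B as a covariate these were -1.76 and -1.83 and both passed (0.0186 and 0.0154), and DESeq2 called both in the fit to the treatment groups alone (adjusted p = 0.00393 and 0.00133).

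**Figure D5:**
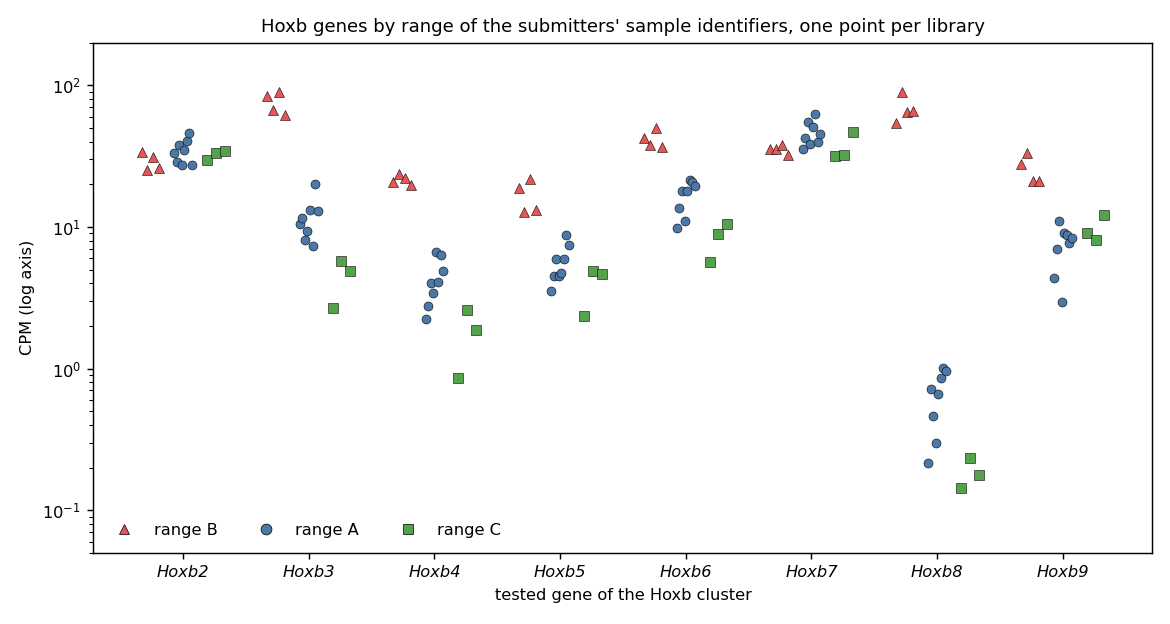
CPM of the 8 tested Hoxb genes on a log axis, with 1 point per library, by identifier range. Range B libraries lie above all others for Hoxb3, Hoxb4, Hoxb5, Hoxb6, Hoxb8 and Hoxb9, and overlap the others for Hoxb2 and Hoxb7.

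The neighbours of Hoxb8 did not all follow it. Hoxb3 had 61.4 to 89.5 CPM in range B, against 7.34 to 20.0 CPM in range A and 2.67 to 5.79 CPM in range C (log2 2.69 in the fit). Hoxb4, Hoxb5, Hoxb6 and Hoxb9 were higher in range B by 5.02-, 2.82-, 2.48- and 3.49-fold, whereas Hoxb2, next to Hoxb3, and Hoxb7, between Hoxb6 and Hoxb8, had log2 range B terms of -0.28 and -0.41 that did not pass (edgeR adjusted p = 0.156 and 0.0532). Outside Hoxb, genes for which range B exceeded all others included Hoxa3, Hoxa4, Hoxc4, Hoxc6, Hoxc13 and Hoxd4. Hoxc13 had 94.6 to 174 CPM in range B and 24.8 to 81.9 CPM in range A. With the 2 treatments kept apart, it averaged 122 CPM in the 3 6-day and 173 CPM in the 1 control library of range B, and 47.7 CPM in the 5 6-day and 57.4 CPM in the 3 control libraries of range A.

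Other transcripts were also compared between the ranges, and some were higher in range B. The 4 T lymphocyte markers listed in the files summed to 18.6 to 28.1 CPM in range B, 0.731 to 3.97 CPM in range A and 0.807 to 1.32 CPM in range C. Of these, Cd247 had 18.6 to 28.04 CPM in range B and at most 1.63 CPM elsewhere. The defining markers Cd3e, Cd3d and Cd3g had at most 0.180 CPM in range B. In range A, control replicate 3 had 1.53, 0.406 and 1.31 CPM of these. The 7 dermal fibroblast markers summed to 9.36 to 19.8 CPM in range B, 4.19 to 21.4 CPM in range A and 5.31 to 8.82 CPM in range C. The range B sums of this list lay within those of range A. Mira, a long noncoding RNA beside Hoxa7 (chr6:52214491-52215288 on GRCm38), had 86.1 to 141 CPM in range B and 19.5 to 35.7 CPM in the other ranges. The 18 Trithorax and H3K27 demethylase genes, whose products counter Polycomb silencing of HOX genes, summed to 2335 to 2914 CPM in range B, 1211 to 1906 CPM in range A and 1261 to 1482 CPM in range C. The 29 Polycomb genes, whose products keep HOX genes silent, summed to 2284 to 2491 CPM in range B, 1978 to 2277 CPM in range A and 2279 to 2330 CPM in range C. The 15 TALE and CDX genes, which include partners of HOX proteins, summed to 583 to 660 CPM in range B, 385 to 471 CPM in range A and 352 to 431 CPM in range C. All 3 lists were thus above range A in range B, and only the Polycomb sums overlapped between ranges B and C. The part of any of these in the HOX values was not tested.

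The 250 bases before to 50 after a start of Hoxb8 are shown because that gene separated the ranges, from RefSeq's promoter table of GRCm38.p6 (plus strand, chr11:96281655-96281954), with its 13 CG pairs in capitals. The start in that table lies inside the span of the gene given above, downstream of its first base, so that the window is upstream of an internal start of the annotated gene.
Hoxb8: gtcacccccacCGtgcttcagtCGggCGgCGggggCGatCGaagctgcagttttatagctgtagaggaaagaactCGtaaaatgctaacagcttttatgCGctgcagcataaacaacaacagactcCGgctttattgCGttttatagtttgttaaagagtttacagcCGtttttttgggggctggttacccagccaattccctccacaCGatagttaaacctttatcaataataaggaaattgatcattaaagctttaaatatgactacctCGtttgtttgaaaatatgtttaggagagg
The table matched 22 of the 39 HOX genes with 24 windows, whose median number of CG pairs was 14.5, against 7 in all 32851 windows. The 17 HOX genes without a window include Hoxc13, Hoxc12, Hoxc9, Hoxc8 and Hoxb3. Windows were searched on both strands. TGATNNAT, a site bound by HOX and PBX together, was found in 4 of 24 HOX windows (16.7%), Hoxb8 among them, and in 8.85% of all windows. TATAAA was found in 4 of 24 (16.7%), again with Hoxb8, and in 13.6% of all windows. GACCACCCA, the site of the Hedgehog factors GLI, was found in 0 of 24 HOX windows and in 0.253% of all windows. A site this rare cannot be judged from 24 windows, and Hoxc13 and Hoxc12 were not searched. These are matches of letters in these windows, and say nothing of binding.

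HOX partners and regulators were followed as lists. Of the 12 tested TALE and CDX genes, 1 was called higher by edgeR at 14 days against control (3.25% of all genes were), Pknox1, a TALE partner, at 83.8 ± 6.48 CPM at 14 days and 49.3 ± 10.1 CPM in control (log2 fold change 0.77, edgeR adjusted p = 0.0325). Against 6 days 1 was lower (1.75% of all genes), Tgif1, a TALE repressor, at 134 ± 35.9 CPM at 14 days and 222 ± 22.3 CPM at 6 days (-0.73, 0.0430). Meis1 had 30.5, 33.2 and 37.9 CPM on average in control, at 6 days and at 14 days, and Meis2 had 3.44, 4.76 and 4.92 CPM. Neither was called in any comparison. Of 29 Polycomb genes 1 was higher at 14 days against control, a share close to the 3.25% of all genes, namely Pcgf5 (log2 fold change 1.23, edgeR adjusted p = 0.00827). Against 6 days Jarid2 was higher (0.76, 0.0273), where 2.14% of all genes were, and Ring1 (-0.80, 0.0399) and Pcgf1 (-0.80, 0.0403) were lower by edgeR, where 1.75% of all genes were. Of the 18 Trithorax and demethylase genes edgeR called 0 in the 3 comparisons, with 0, 6 and 8 at an unadjusted p under 0.05 at 6 days against control, 14 days against control and 14 days against 6 days. DESeq2 called 0, 4 and 5 of them, all lower. In the 2 comparisons with 14 days it called 14.7% (against control) and 13.9% (against 6 days) of all genes. The share of all genes at an unadjusted p under 0.05 was not computed, here or for the other lists. Of the 12 tested genes flanking the clusters edgeR called 0 as well, with 0, 3 and 3 at an unadjusted p under 0.05. DESeq2 called 0, 2 and 2 of the 12, where the shares with 14 days lie near the 14.7% and 13.9% of all genes. At 6 days against control edgeR called no gene of these 4 lists, with 8 Polycomb genes at an unadjusted p under 0.05. The Polycomb genes that DESeq2 called there included Ezh2 and Jarid2, beside 846 calls among all 18751 genes.

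Of 7 tested noncoding transcripts of the clusters, edgeR called 1 at 14 days against control, where 3.35% of all genes were called lower. Halr1, which lies beside the Hoxa cluster at chr6:52102949-52113684 on GRCm38, fell at 14 days. It had 0.66, 0.71 and 0.82 CPM at 14 days, against 2.73, 4.88, 5.26 and 5.37 CPM in control, with no overlap (log2 fold change -2.64, edgeR adjusted p = 0.00579). Against 6 days, with 2.22 ± 0.90 CPM, its log2 fold change was -1.60 (edgeR adjusted p = 0.0453). At 6 days against control edgeR called 0 of the 7, and DESeq2 called 1, Halr1, lower, beside 846 calls among all 18751 genes. DESeq2 also called Hoxb5os lower at 14 days against control, where it called 14.7% of all genes. Against 6 days it called Hoxb3os, Hoxb5os and Halr1 lower, beside 13.9% of all genes.

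Reported targets of Hoxc13 and keratins of the hair shaft were not called by edgeR. Of 19 listed in the files, 15 were tested, and 0 of the 15 passed in any comparison by edgeR, with 1, 2 and 4 at an unadjusted p under 0.05 at 6 days against control, 14 days against control and 14 days against 6 days. DESeq2 called 0, 1 and 2 of them, which were Msx2 at 14 days against control and Krt31 and Krt35 at 14 days against 6 days. In these 2 comparisons it called 14.7% and 13.9% of all genes, so the list did not exceed those shares. At 14 days against control their median log2 fold change was -0.49, from -3.92 for Krt82 to 1.51 for Foxq1. Foxn1, a hair regulator under Hoxc13 in mice, had 2.61 to 22.7 CPM at 14 days and 2.59 to 17.3 CPM in control (log2 fold change 0.48, adjusted p = 0.728). Krt75, a keratin of the companion layer, averaged 14.4 CPM at 14 days and 58.5 CPM in control (-2.02), which did not pass. Summed over the 19, the list had 99.96 to 115 CPM at 14 days and 56.3 to 250.2 CPM in control.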

How the data were processed

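Per the file headers, a deposited count is the number of uniquely aligned reads of a gene, and the deposited RPKM divide it by gene length and by a library size factor. The 2 agreed up to such factors within a relative deviation of 3.47e-13. Per the submitters' processing notes, reads were aligned with GSNAP to GRCm38. The sources used here give neither the gene annotation nor the strand handling. Of 36528 Entrez identifiers 31049 matched RefSeq, and 5479, with 1.24 to 1.59% of counts, did not. The members and lists were chosen with earlier results of these data known.

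All 15 libraries entered 1 fit of the counts by the quasi-likelihood F test of edgeR 4.0.16 (R 4.3.3), with TMM factors, without covariates and with 12 residual degrees of freedom. The filterByExpr function, given the groups, left 18751 genes. Over these, p-values were adjusted by Benjamini and Hochberg's method, and 0.05 was the threshold. For counts at an unadjusted p under 0.05 the share of all genes was not computed. TMM-scaled CPM serve as levels of one gene and deposited RPKM as levels between genes. HOX genes named with all values are those called in any comparison and the 3 of each cluster with the highest RPKM; Hoxb8, Hoxc9 and others were named after their values were seen. List genes are named where called, at most 5 per list, beside Foxn1, Meis1 and Meis2, and some genes are not reported here; Krt31, Krt35, Krt75, Krt82, Foxq1, Msx2, Ezh2, Mira and Cd247 were named after their values were seen. Alternatives were RLE factors, 2 filters, DESeq2 1.42.0, range B as a covariate or left out, the 2 groups alone and each library left out. The fit was tested on simulated counts. Homeobox stretches were placed from GENCODE coding sequence and promoters taken from RefSeq. Python 3.11.15 with pandas 2.3.3, numpy 2.4.6 and matplotlib 3.10.9 was used.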

Additional observations from a re-analysis of the deposited data

Results flagged for a closer look

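HOX levels in 52 sets of libraries (26 genes, control and 6-day groups) were searched for a single library far from the rest of its group by Dixon's criterion, and 7 stood out. Chance flags about 1 in 20 such sets if values are normal and sets independent. The CPM were not transformed and the genes share libraries, so this rate is only a rough guide here. Control replicate 4, the control of range B, was the high library in 6 of the 7. For Hoxb3, Hoxb5, Hoxb8, Hoxb9 and Hoxc13 this repeats the range B difference given above. It had 89.7 CPM of Hoxb8, where the next control had 0.713 CPM, and 67.0 CPM of Hoxb3, where the next had 13.2 CPM. For Hoxb5 it had 12.8 CPM against 4.72 CPM, for Hoxb9 33.2 CPM against 9.12 CPM, for Hoxc13 173 CPM against 65.7 CPM, and for Hoxd3 2.61 CPM against 0.687 CPM. The last was Hoxa9, at 4.56 CPM in 6-day replicate 3, where the next 6-day library had 10.2 CPM. What sets these libraries apart was not tested.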

How the results depend on the processing

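No paired analysis was possible because the labels carry no replicate numbers. The fold changes of 14 HOX genes, the 13 named by rule and Hoxb8, were computed under each setting, and none of these changed direction past the threshold; the count of HOX calls at 6 days stayed at 0 in every fit. HOX calls at 14 days against control were 2, but 1 with no filter on low counts, 8 with DESeq2, 6 with range B as a covariate and 0 in the 2 groups alone. Against 6 days they were 1, but 10 with DESeq2, 5 with the covariate and 3 without range B. Over all genes, calls at 6 days were 236, but 846 with DESeq2, 866 with the covariate and 465 without range B. At 14 days against control they were 1238, but 2752 with DESeq2, 3196 with the covariate, 2330 without range B and 374 in the 2 groups alone. Against 6 days they were 730, but 460 with no filter, 2609 with DESeq2, 2036 with the covariate and 1322 without range B. Leaving out 1 library gave 69 to 308 calls at 6 days (HOX 0 to 0), 376 to 1438 at 14 days against control (HOX 0 to 3) and 3 to 1138 against 6 days (HOX 0 to 3). The fewest against 6 days came without 14-day replicate 1. The cause of these shifts was not tested. Precision at 14 days rests on 3 libraries, and a HOX gene that did not pass is not shown to be unchanged.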
